A study of Saccharomyces cerevisiae with 32 samples.

Results

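The genes described here are 60 protein kinase genes of budding yeast that lie outside the mitogen-activated protein kinase (MAPK), protein kinase A (PKA) and TOR cascades. They were taken as a fixed list of gene symbols, and a gene belongs when its symbol names a row of the deposited tables, whatever its values. Of the 60 genes, 57 had a row in at least 1 of the 4 deposited tables and 55 had a row in all of them, out of 5328 genes in the series. YCK1, CDC5 and CDC28 were not analysed here, MRK1 was read from the ded1-ts table alone, and RCK1 from the tables of the DED1 mutants alone.

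The study set mutants of a pair of DEAD-box RNA helicases against wild type by ribosome profiling, which counts mRNA fragments protected by ribosomes, and by mRNA sequencing. A cold-sensitive DED1 mutant, ded1-cs (strain NSY5), was set against wild-type DED1 (NSY4) at 15 °C. The ded1-ts strain (NSY11), whose DED1 allele is temperature-sensitive, was set against its own wild-type DED1 (NSY10) at 37 °C. A temperature-sensitive mutant of TIF1, which encodes eIF4A, tif1-ts (NSY21), was set against wild-type TIF1 (NSY20) at 30 °C and again at 37 °C. All 16 groups, 8 for footprints and 8 for mRNA, were whole Saccharomyces cerevisiae cells from synthetic complete medium given 100 µg/ml cycloheximide 2 min ahead of harvest, and no 2 comparisons shared a library. The labels name the alleles without giving the base changes, and they do not say whether TIF2, the near-identical second gene for eIF4A, was intact in the TIF1 strains. Each group held 2 replicates, which the series design calls biological, but the tables give 1 value per group, so no difference below has a replicate check and none carries a p-value.

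Translational efficiency (TE) is the footprint abundance of a gene divided by its mRNA abundance. Levels below are log2 normalized abundances, and changes are log2 ratios, mutant to wild type, from the authors' deposited tables, so that -1 is a 2-fold lower value. Footprint changes carry a counting standard error, which covers the sampling of reads only. Because whole cultures were measured, a lower level in some cells and a lower level in every cell cannot be told apart.

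Protein kinases transfer phosphate from ATP to other proteins and so switch their activity, place or stability. Those described here set the timing of the cell cycle, watch over DNA damage and the spindle, link growth to nutrients, and act on membranes, secretion, actin and ion transport. Several stand close to the cascades left out: Ypk1 and Ypk2 are phosphorylated by TOR complex 2, Rck2 is a target of the MAPK Hog1, and Rim15, Yak1 and Ksp1 are controlled by PKA or TOR. Ded1 and eIF4A both act in translation initiation, where they unwind mRNA for the scanning ribosome.

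Footprint depth estimated from the spacing of low values was 3.90 M to 12.1 M reads per group, with ded1-cs the least certain column, and mRNA depth is unknown. The mutants carry conditional alleles, so the level of the mutated gene is no check of the labels. DED1 itself had an mRNA change of 0.95 in ded1-cs and -0.77 in ded1-ts in the authors' deposited tables, and TIF2 had one of 0.04 for tif1-ts at 30 °C and -0.20 at 37 °C. All kinases with a row passed the floor of 10 for mean abundance in both assays, and 32, 53, 31 and 33 of them reached 100 in the tables of ded1-cs, ded1-ts, tif1-ts (30 °C) and tif1-ts (37 °C). Abundance here and below is the mean of wild type and mutant, so a gene can reach 100 through its higher group alone. In ded1-cs the footprints of KSP1, AKL1, KIN1, KIN2, RIM15 and CKA1 reached 100 only through wild type, and those of KIN3, KIN28 and CTK1 only through the mutant. Cases in tif1-ts included SKS1 at 30 °C and YPK2 at 37 °C, through the mutant, and HSL1 at 37 °C, through wild type.

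The kinases had lower TE changes than the genome in ded1-cs and values near those of the genome in the other comparisons. In ded1-cs, 25 of 56 kinases (44.6%) were at least 2-fold lower in TE by the authors' deposited table, against 17.4% of the 4855 genes that entered. None was at least 2-fold higher, against 8.63% of all genes. The median TE change of the kinases in that table was -0.86, and that of all genes was 0.10. Measured from the all-gene median, 27 kinases were at least 2-fold lower and the median of the kinases was -0.96. The share of all genes on that measure is not given. In ded1-ts, 3 of 57 kinases (5.26%) were at least 2-fold lower, near the 4.64% of all genes, and none was higher, against 4.18%. In tif1-ts the numbers were 1 of 55 (1.82%) at 30 °C, against 1.14% of all genes, and 2 of 55 (3.64%) at 37 °C, against 3.19%. No kinase had a TE at least 2-fold higher in tif1-ts, where 2.34% of all genes did so at 30 °C and 5.27% at 37 °C. The kinases had a median TE change, by the authors' deposited tables, of -0.05 for ded1-ts and -0.04 for tif1-ts at either temperature, where all genes had 0.08 (ded1-ts), 0.04 (tif1-ts, 30 °C) and 0.08 (tif1-ts, 37 °C). Across the 4 tables, 26 kinases were at least 2-fold lower somewhere and 31 nowhere, and 25 of the 26 were those of ded1-cs. The share of all genes lower in any table is not given.

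**Figure D1:**
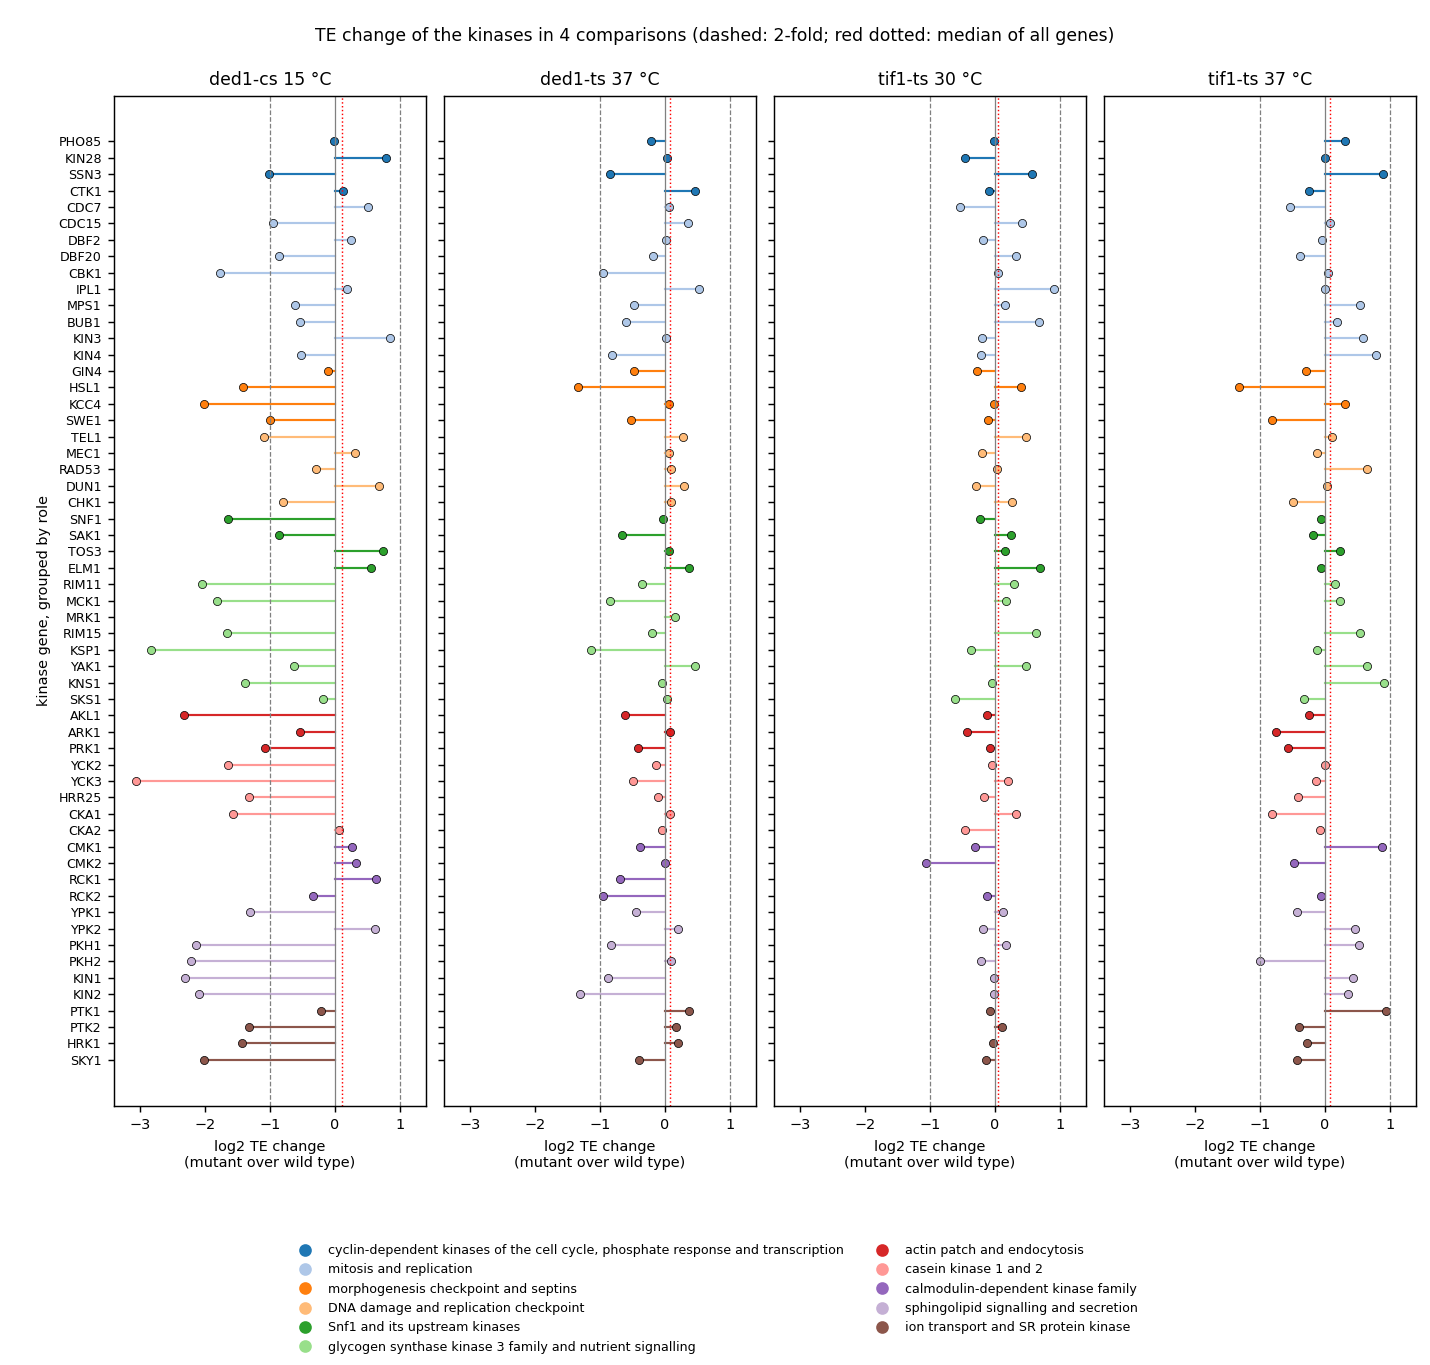
The log2 TE change (horizontal axis) of each kinase gene (rows, coloured by role) is drawn in 4 panels, 1 per comparison, with dashed lines at 2-fold and a red dotted line at the median of all genes. In the ded1-cs panel 25 points lie at or beyond the lower 2-fold line and none beyond the upper one, while the other panels hold 3, 1 and 2 such points.

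In ded1-cs the medians of the role groups ran from -2.12 to 0.30. Kinases of sphingolipid signalling and secretion had the lowest median, and 5 of 6 were at least 2-fold lower in the authors' deposited table. They were followed by the glycogen synthase kinase 3 and nutrient group at -1.67 (5 of 7), the casein kinases at -1.57 (4 of 5), the ion transport and SR protein kinases at -1.38 (3 of 4), the bud-neck morphogenesis kinases at -1.20 (2 of 4) and the actin patch kinases at -1.08 (2 of 3). The median was -0.52 for the mitotic and replication kinases (1 of 10), and for the DNA damage kinases it was -0.30 (1 of 5). It was -0.15 for Snf1 and its upstream kinases (1 of 4), 0.06 for the cyclin-dependent kinases (1 of 4) and 0.30 for the calmodulin-dependent family (0 of 4). The groups are small, and the order of their medians was not tested.

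Kin1 and Kin2 are related kinases that act in exocytosis at the bud cortex, and Pkh1 and Pkh2 are the yeast counterparts of mammalian PDK1, which phosphorylate Ypk1 and Ypk2 in response to sphingolipids. KIN1 had a log2 footprint level of 8.09 in wild-type DED1 and 6.05 in ded1-cs at 15 °C, with mRNA at 7.5 and 7.8, and a TE change of -2.31 by the authors' deposited table. KIN2 had footprints at 7.83 and 5.78 with mRNA at 8.6 and 8.7, and a TE change of -2.09 in the same deposited table. In both genes the footprints were about 2 log2 units lower in the mutant (-2.04 with a counting standard error of 0.17, and -2.05 with 0.19), while mRNA was slightly higher. PKH1 footprints stood at 6.55 in wild type and 4.31 in ded1-cs, and those of PKH2 at 5.45 and 3.68. Their TE changes by the authors' deposited table were -2.14 and -2.21, on mRNA changes of -0.10 and 0.45. Both values rest on few mutant reads, and the footprint changes had counting standard errors of 0.31 and 0.39. YPK1, which keeps sphingolipid synthesis and cell wall integrity in order, had footprints at 8.90 and 7.73 and a deposited TE change of -1.32. Its partner YPK2 went the other way, with footprints at 6.05 and 6.97 and a TE change of 0.62 by the authors' deposited table.

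Among the nutrient kinases, Ksp1 acts in filamentous growth and autophagy, Rim11 and Mck1 are glycogen synthase kinase 3 homologs, Rim15 governs entry into stationary phase, Kns1 is a LAMMER kinase and Yak1 a DYRK kinase that slows growth. KSP1 had footprints at 8.11 in wild-type DED1 and 5.39 in ded1-cs with mRNA at 7.8 and 7.9. Its TE change in the authors' deposited table, -2.83, was the lowest of the kinases with mean abundances of at least 100 in both assays. The TE changes of RIM11, MCK1, RIM15 and KNS1 in that table were -2.05, -1.81, -1.67 and -1.39, and the footprints of each were lower by 1.27 or more on the log2 scale. YAK1 and SKS1, a kinase of adaptation to low glucose, stayed inside 2-fold at -0.63 and -0.19 in the authors' deposited table. YAK1 overlaps the gene IRC9 by 245 bases in the R64 annotation, and the sources used here do not say whether reads were counted by strand, so its values are uncertain.

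The casein kinase 1 isoforms Yck2 (plasma membrane), Yck3 (vacuole) and Hrr25 (DNA repair, meiosis and ribosome assembly) and casein kinase 2, whose catalytic subunits are Cka1 and Cka2, phosphorylate many substrates. YCK3 had the lowest TE change of all the kinases in the authors' deposited table, -3.07, with footprints at 7.10 in wild type and 4.48 in ded1-cs and mRNA at 6.9 and 7.4. That value rests on few mutant reads, and its footprint change of -2.61 had a counting standard error of 0.29. YCK2 and HRR25 had TE changes of -1.65 and -1.33 by the authors' deposited table, and in both the mRNA was higher in the mutant by 0.39 and 0.56. CKA1 footprints stood at 7.47 and 6.52 while its mRNA stood at 7.8 and 8.4, a TE change of -1.57 by the authors' deposited table. CKA2 footprints stood at 8.63 and 8.54, its mRNA at 8.6 and 8.4, and its deposited TE change was 0.07. The 2 catalytic subunits of the same enzyme thus lay 1.64 apart.

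SKY1 encodes an SR protein kinase that phosphorylates RNA-binding proteins of the SR type, and Hrk1 and Ptk2 activate the plasma membrane proton pump. SKY1 footprints were 8.16 in wild-type DED1 and 6.99 in ded1-cs, its mRNA was 7.9 and 8.8, and its TE change in the authors' deposited table was -2.02. HRK1 footprints were 8.59 and 7.83, its mRNA 7.3 and 8.0, and its deposited TE change -1.44. SKY1 and HRK1 had the largest mRNA changes among the kinases of abundance at least 100, 0.84 and 0.68, so part of their TE change was a higher mRNA level. PTK2 had a TE change of -1.32 by the authors' deposited table on an mRNA change of 0.04, and its relative PTK1, which acts in polyamine uptake, had one of -0.22.

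The actin patch kinases Akl1, Ark1 and Prk1 release endocytic coat proteins from actin patches. AKL1 footprints were 8.44 in wild-type DED1 and 6.18 in ded1-cs at mRNA levels of 7.7 and 7.8, and its TE change was -2.33 in the authors' deposited table. PRK1 had -1.08 and ARK1 -0.53 in that table. At the bud neck, Hsl1, Gin4 and Kcc4 are septin-bound kinases and Swe1, which Hsl1 helps to destroy, holds back the mitotic cyclin-dependent kinase. HSL1 and KCC4 had TE changes of -1.41 and -2.02 by the authors' deposited table, SWE1 lay just inside the 2-fold line at -0.99, and GIN4 had -0.10. GIN4 footprints were 8.28 and 8.30, whereas KCC4 footprints were 5.29 and 4.09 on mRNA of 5.8 and 6.6.

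The other 4 kinases to pass the lower 2-fold line in ded1-cs were CBK1 of the RAM pathway of cell separation, at -1.77, SNF1, the yeast AMP-activated kinase, at -1.65, the DNA damage kinase TEL1 at -1.10 and SSN3, the kinase of the Mediator complex, at -1.02, all by the authors' deposited table. The upstream kinases of Snf1 did not share one direction, with TE changes of -0.86 for SAK1, 0.56 for ELM1 and 0.74 for TOS3 in that table. The highest TE changes of the kinases at abundance 100 or more were small. KIN3, a NIMA-related kinase, had footprints at 6.58 in wild-type DED1 and 7.22 in ded1-cs on mRNA at 7.1 and 6.9, a TE change of 0.85 by the authors' deposited table. KIN28, the transcription factor IIH kinase, had footprints at 6.33 and 7.09 on mRNA at 6.9 in both strains, and a deposited TE change of 0.79. CMK2, a calmodulin-dependent kinase, had footprints at 9.01 and 9.47 on mRNA at 8.3 and 8.4, and a deposited TE change of 0.33. Mec1, Rad53, Dun1 and Chk1, which relay DNA damage together with Tel1, had 0.30, -0.30, 0.68 and -0.80 in the authors' deposited table.

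In each of the 25 kinases below the 2-fold line in ded1-cs, the footprint change was larger in size than the mRNA change, and in 20 the footprints themselves were at least 2-fold lower. For these genes, footprint changes in the authors' deposited table ran from -2.73 to -0.71, and all 25 were below 0 by more than 2 counting standard errors, which ran from 0.08 to 0.39. Their mRNA changes ran from -0.29 to 0.84, with 23 of 25 above 0, and in genes such as KCC4, SKY1, HRK1 and CKA1 a higher mRNA level made up part of the TE change. The 25 were picked by TE in these same values, so lower footprints and a lean to higher mRNA partly follow from that choice. Without that choice, footprints were at least 2-fold lower in 35.7% of the 56 kinases, against 16.4% of all genes. The mRNA change was below 0 in 15 of the 56 kinases and in 2264 of 4855 genes. Over all 56 kinases, 2 had mRNA at least 2-fold lower, against 2.04% of all genes, and none had mRNA at least 2-fold higher, against 0.844%. Those 2 were RCK1, a relative of Rck2, at -1.52 and TOS3 at -1.13 by the authors' deposited table. RCK1 footprints were 8.39 in wild type and 7.51 in the mutant and those of TOS3 6.16 and 5.78, so the TE changes of both genes were above 0, at 0.64 and 0.74 in the authors' deposited table.

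**Figure D2:**
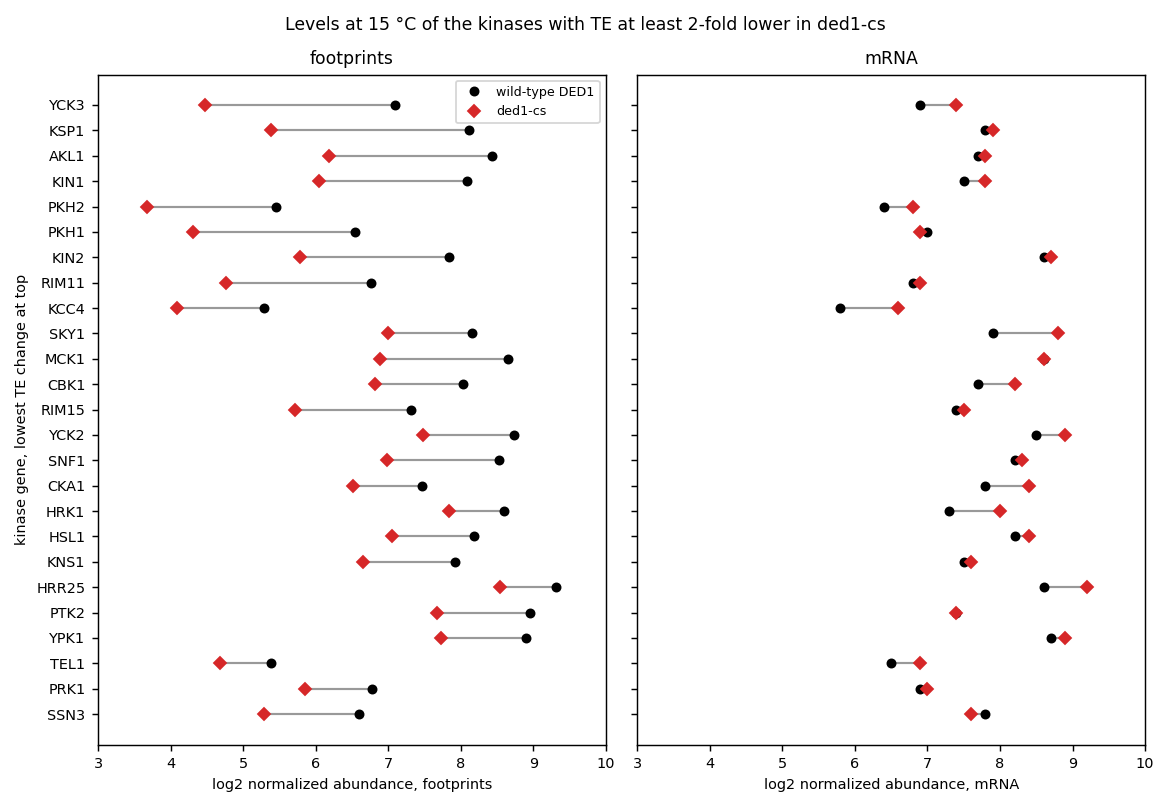
Log2 normalized abundance of footprints (left) and mRNA (right) in wild-type DED1 (black circles) and ded1-cs (red diamonds) at 15 °C, for the 25 kinases with TE at least 2-fold lower, which are the rows, 1 value per group. Every red footprint diamond lies left of its circle, whereas the mRNA marks lie close together or with the mutant to the right for all but PKH1 and SSN3.

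**Figure D3:**
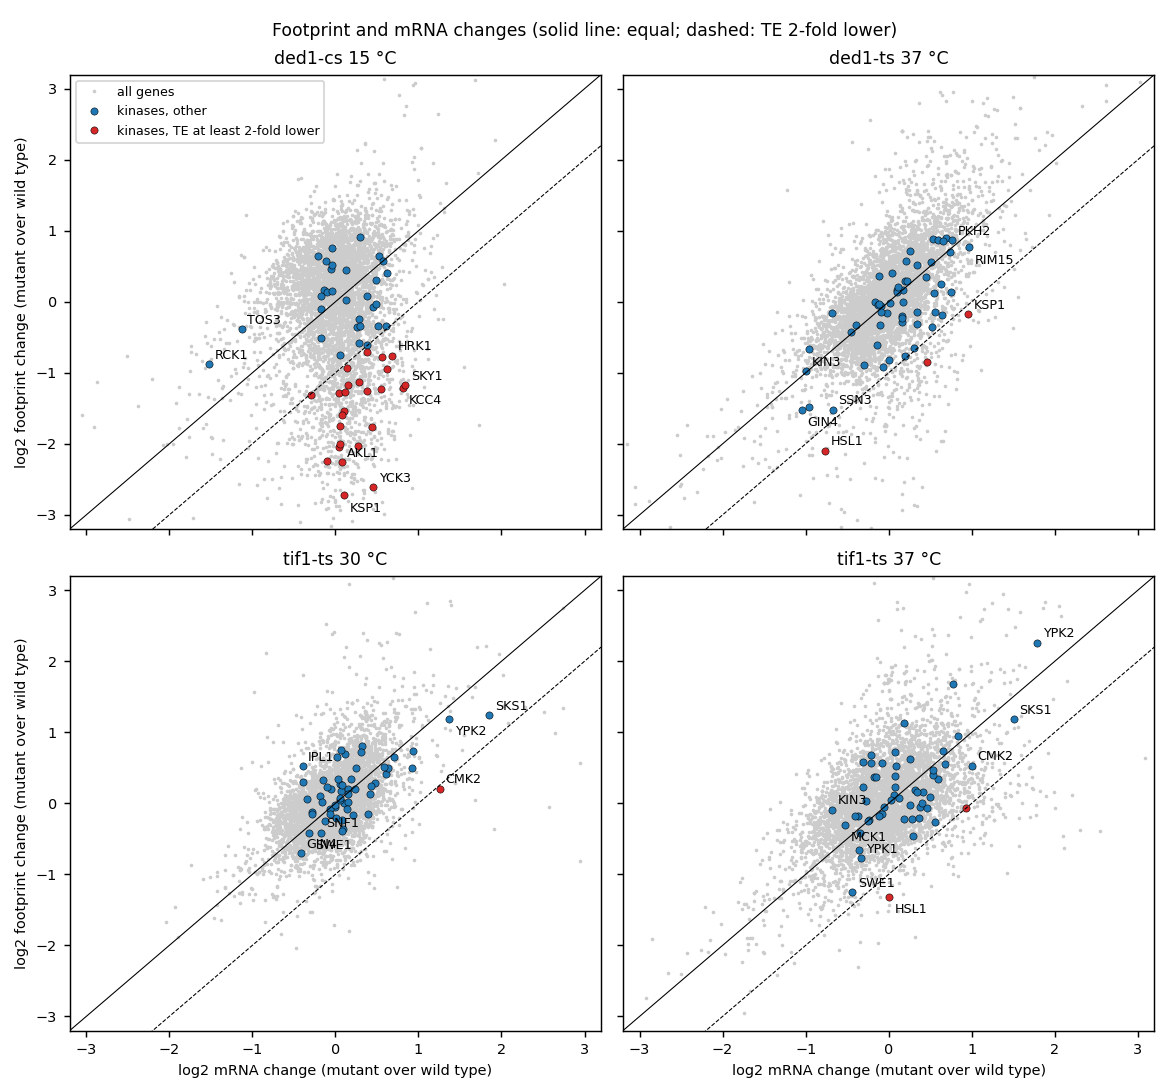
Log2 footprint change (vertical axis) against log2 mRNA change (horizontal axis) for all genes that entered (grey) and the kinases (blue, or red where TE was at least 2-fold lower), in 4 panels, 1 per comparison. The solid line marks equal changes and the dashed line a 2-fold lower TE, and between 2 and 17 genes per panel, none of them a kinase, lie outside the axes. The red points of ded1-cs hang below the dashed line near an mRNA change of 0, while YPK2, SKS1 and CMK2 lie to the right in both tif1-ts panels.

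In ded1-ts at 37 °C the kinases below the 2-fold line were HSL1, KIN2 and KSP1, which were also below it in ded1-cs. HSL1 had footprints at 9.34 in wild-type DED1 and 7.24 in ded1-ts and mRNA at 9.4 and 8.59. Its footprint change of -2.10 in the authors' deposited table, with a counting standard error of 0.12, thus split into an mRNA change of -0.77 and a TE change of -1.33. KIN2 footprints were 9.0 and 8.15 with mRNA at 9.3 and 9.72, and its TE change in that table was -1.31. KSP1 footprints were 9.36 and 9.18, nearly level, and its mRNA was 9.3 and 10.3. Its TE change of -1.14 by the authors' deposited table was therefore mostly an mRNA change of 0.96, unlike in ded1-cs, where it was a footprint change. RCK2, which phosphorylates elongation factor 2 under osmotic stress, and CBK1 came close to the line. RCK2 footprints were 9.92 and 9.15 and those of CBK1 9.30 and 8.65, and their TE changes by the authors' deposited table were -0.96 and -0.95.

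Of the kinases with abundances of at least 100, the highest TE changes in ded1-ts were 0.52 for IPL1, the Aurora kinase, 0.47 for YAK1 and 0.46 for CTK1, which phosphorylates the tail of RNA polymerase II, in the authors' deposited table. IPL1 footprints were 6.74 and 6.58 while its mRNA was 7.3 and 6.66, so its value came from lower mRNA. YAK1 footprints were 9.17 in wild-type DED1 and 9.53 in ded1-ts, and those of CTK1 were 8.07 and 8.79. GIN4 was the only kinase with mRNA at least 2-fold lower in ded1-ts, at -1.04 by the authors' deposited table, with 2.58% of all genes lower, and none was higher, against 2.52%. Its mRNA was 9.6 and 8.5 and its footprints were 10.1 and 8.55. KIN3 followed with mRNA at 8.7 and 7.7 and an mRNA change just inside the line. With SWE1 at -0.96 and HSL1 at -0.77, 3 of the 4 bud-neck kinases had lower mRNA in ded1-ts in the authors' deposited table, and the median of the 4 was -0.86. Over all genes, 2658 of 5238 had an mRNA change below 0 there, and 4 kinases allow no reading about the group. The mRNA of KCC4 had a change of 0.22.

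In tif1-ts the mRNA changes past 2-fold were those of the same 3 kinases at both temperatures. At 30 °C, 3 of 55 kinases had mRNA at least 2-fold higher in the authors' deposited table, against 1.3% of all genes, and none was lower, against 1.03%. At 37 °C the number was again 3 of 55, against 3.79% of all genes, with none lower, against 3.23%. These were SKS1, YPK2 and CMK2. Both temperatures set the same strains against each other. The share of all genes past 2-fold at both is not given, so the overlap is no result about the kinases. SKS1 mRNA was 6.1 in wild-type TIF1 and 8.0 in tif1-ts at 30 °C, and 6.6 and 8.1 at 37 °C. Its footprints were 5.99 and 7.23 at 30 °C, and 6.73 and 7.91 at 37 °C. Both assays were thus higher in the mutant at both temperatures, with footprint changes of 1.24 and 1.18 and TE changes of -0.61 and -0.32 in the authors' deposited tables.

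YPK2 mRNA was 6.8 in wild-type TIF1 and 8.1 in tif1-ts at 30 °C, and 6.5 and 8.3 at 37 °C. YPK2 footprints were 5.80 and 6.99 at 30 °C, and 5.27 and 7.53 at 37 °C. The footprint change of 2.26 at 37 °C by the authors' deposited table, with a counting standard error of 0.15, was the largest upward footprint change of any kinase in the 4 tables. YPK1, its relative, had a footprint change of -0.77 in that table, with footprints at 8.39 and 7.62. CMK2 mRNA was 7.1 in wild-type TIF1 and 8.4 in tif1-ts at 30 °C, and 6.7 and 7.7 at 37 °C, while its footprints were 7.08 and 7.29, and 7.27 and 7.80. CMK2 was the only kinase with TE at least 2-fold lower at 30 °C, at -1.06 by the authors' deposited table, and that value was an mRNA change of 1.26 beside a footprint change of 0.21.

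Among kinases of abundance at least 100, the other low TE changes at 30 °C were those of CKA2 at -0.46, KSP1 at -0.37 and DUN1 at -0.29 by the authors' deposited table. CKA2 footprints were 8.22 in wild-type TIF1 and 7.83 in tif1-ts, those of KSP1 were 8.04 and 7.88, and those of DUN1, an effector of Rad53, were 6.59 and 6.71. The highest at that abundance were those of RIM15 at 0.64, YAK1 at 0.47 and HSL1 at 0.40 in that deposited table, while among less abundant kinases IPL1, ELM1 and BUB1 had 0.92, 0.69 and 0.68 and CDC7 had -0.54. RIM15 footprints were 6.90 and 7.55 at an mRNA level of 7.3 in both strains, and YAK1 footprints were 7.70 and 8.03. HSL1 footprints were 7.70 and 7.76 while its mRNA was 8.2 and 7.9, so its value came from lower mRNA. The spread of TE changes over the kinases at 30 °C, a standard deviation of 0.36, was the smallest of the 4 comparisons and below the 0.45 of all genes.

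At 37 °C in tif1-ts, HSL1 and PKH2 were at least 2-fold lower in TE. HSL1 footprints were 7.74 in wild-type TIF1 and 6.43 in tif1-ts at an mRNA level of 6.9 in both strains, a TE change of -1.32 by the authors' deposited table. PKH2 footprints were 6.01 and 5.94 with mRNA at 6.3 and 7.2, so its deposited TE change of -1.01 was mostly mRNA. Among kinases of abundance at least 100, the next lowest were CKA1 at -0.81, CMK2 at -0.47, and YPK1 and SKY1 at -0.43 in the authors' deposited table. Less abundant kinases with low values in that table included SWE1 at -0.81, ARK1 at -0.75 and PRK1 at -0.57. CKA1 footprints were 7.41 and 7.15, and those of SKY1 were 7.46 and 7.41 on mRNA of 8.0 and 8.4. At abundances of at least 100 the highest were KNS1 at 0.91, CMK1 at 0.88 and KIN4, a spindle position checkpoint kinase, at 0.78 by the authors' deposited table. KNS1 footprints were 7.05 and 8.74 and its mRNA 7.2 and 8.0, so both assays were higher in the mutant. CMK1 footprints were 6.60 and 7.18 and its mRNA 6.8 and 6.5, and KIN4 footprints were 6.46 and 7.03 and its mRNA 7.6 and 7.4.

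Over the 4 comparisons, 9 kinases had TE changes below 0 in every deposited table: AKL1, GIN4, HRR25, KSP1, PRK1, RCK2, SKY1, SNF1 and SWE1. They are 16.4% of the 55 kinases in all tables, beside 11.4% of the 4746 genes that entered in all of them. IPL1 and TOS3 were above 0 throughout, 3.64% of the kinases beside 18.9% of all genes. All 3 kinases at least 2-fold lower in ded1-ts were so in ded1-cs, where they make 12% of the 25, and both of those in tif1-ts at 37 °C were so in ded1-cs, where they make 8%. Over all genes, 82.6% of those lower in ded1-ts and 32.5% of those lower in tif1-ts at 37 °C were also lower in ded1-cs, and counts of 3 and 2 kinases are too small to set against these shares. HSL1 alone was at least 2-fold lower in 3 comparisons. Spearman's rho between the TE changes of the DED1 mutants was 0.41 over 56 kinases and 0.39 over 4850 genes. The genes of each table share its normalization, and rho is given as a description.

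Related kinases were compared as pairs fixed by name. Of 11 pairs with both genes in the table, 6 lay at least 1 log2 unit apart in TE change in ded1-cs, none of 12 for ded1-ts, none of 10 for tif1-ts at 30 °C and 3 of 10 for tif1-ts at 37 °C. Over all combinations of 2 kinases the same was true of 52.4%, 13.7%, 5.52% and 17.0%, so the 54.5% of listed pairs in ded1-cs is near that background, and pairs this few allow no reading of the others. In ded1-cs these were YPK1 and YPK2, 1.94 apart, GIN4 and KCC4, CKA1 and CKA2, TOS3 and SAK1, PTK1 and PTK2, and DBF2 and DBF20. Their footprint changes differed, first gene minus second and in that order, by -2.08, 1.23, -0.85, 0.20, 1.68 and 0.49. For TOS3 and SAK1 the 0.20 had a counting standard error of 0.30, so their TE difference was mostly mRNA. DBF2, a mitotic exit kinase, had footprints at 7.95 in wild-type DED1 and 8.10 in ded1-cs and a TE change of 0.24 by the authors' deposited table, while DBF20 had footprints at 6.22 and 5.88 and -0.86. SAK1 footprints were 6.12 and 5.53 on mRNA of 8.0 and 8.3. PTK1 footprints were 6.72 and 7.12, whereas PTK2 footprints were 8.95 and 7.67. By contrast KIN1 and KIN2 lay 0.22 apart in ded1-cs and PKH1 and PKH2 0.07 apart. The footprint changes of PKH1 and PKH2 differed by -0.47 with a counting standard error of 0.50, so how close this pair lay is uncertain.

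At 37 °C in tif1-ts the parted pairs were PKH1 and PKH2, CMK1 and CMK2, and PTK1 and PTK2. Their footprint changes differed, first gene minus second and in that order, by 0.30, 0.05 and 1.35, with counting standard errors of 0.22, 0.16 and 0.17. The TE differences of the PKH and CMK pairs were thus mostly mRNA. PKH1 had a TE change of 0.53 by the authors' deposited table on footprints of 6.86 and 7.08, against -1.01 for PKH2. PTK1 had 0.94 on footprints of 5.81 and 6.94, against -0.41 for PTK2 on footprints of 8.19 and 7.97 in the same deposited table. The sources used here do not say how reads that match both genes of a pair were treated, so a shift of reads between close copies cannot be told apart from a difference between them.

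**Figure D4:**
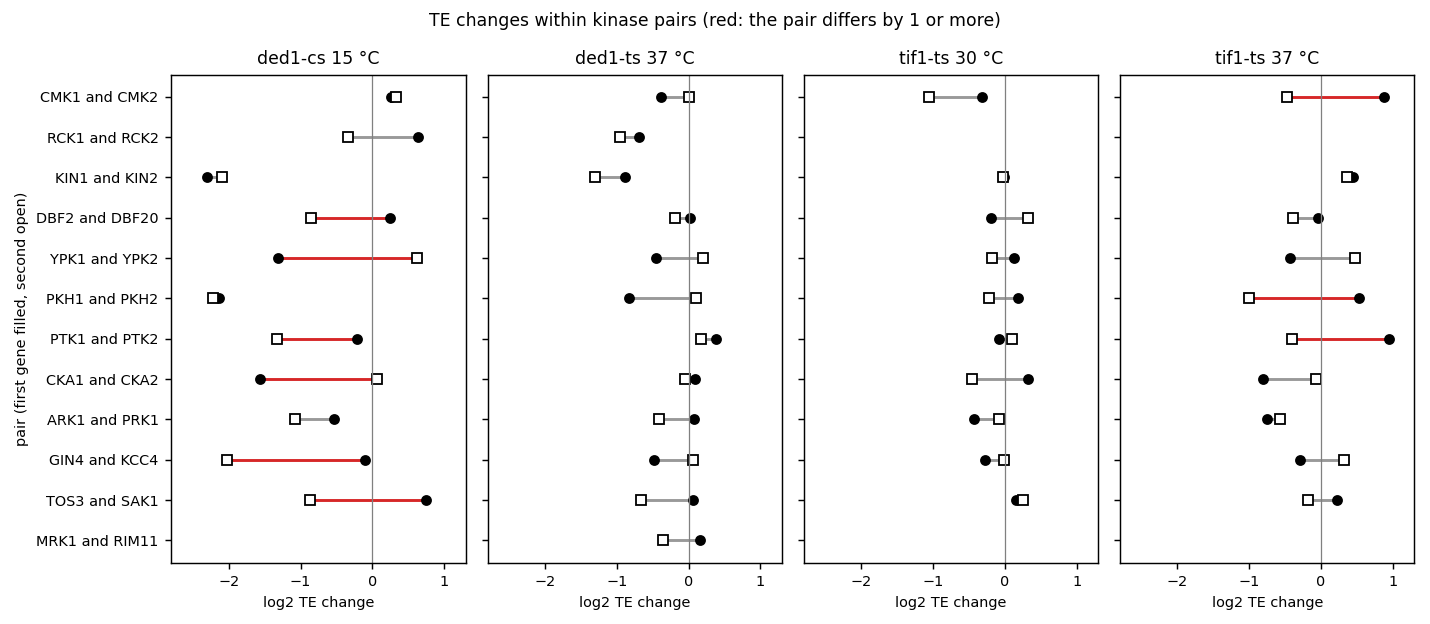
Log2 TE change (horizontal axis) of both genes of each kinase pair (rows; the first-named gene as a filled circle and the second as an open square) in 4 panels, 1 per comparison, joined in red where the pair is at least 1 apart. Red bars join 6 pairs in the ded1-cs panel, none for ded1-ts or tif1-ts at 30 °C, and 3 for tif1-ts at 37 °C.

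Long genes had lower TE changes in ded1-cs, and kinase genes are long. The kinases had a median listed gene length of 2012 bases in the ded1-cs table and all genes 1293. Spearman's rho between that length and TE change was -0.41 over 56 kinases and -0.42 over 4853 genes. Genes were split by length into 4 classes of nearly equal size. In the class of 1986 bases or more, 17 of 29 kinases were at least 2-fold lower in TE, with a median of -1.32, against 34.5% and -0.53 for all genes of that class. In the class of 1293 to 1983 bases the number was 5 of 20 kinases, against 18.4% of all genes, and the medians were nearly equal, at -0.03 and -0.04. In that of 825 to 1290 bases it was 3 of 7, against 10.9%, with medians of -0.01 and 0.29. No kinase gene was in the shortest class. The 8 kinases below the 2-fold line outside the longest class included the glycogen synthase kinase 3 homologs RIM11 (1113 bases) and MCK1 (1128 bases), whereas MEC1, at 7107 bases, had a TE change of 0.30 by the authors' deposited table. In the other comparisons rho over the kinases was -0.18 (ded1-ts), 0.20 (tif1-ts, 30 °C) and 0.01 (tif1-ts, 37 °C), where all genes had -0.35, -0.21 and -0.39. The part of length in the TE changes of the kinases was not tested.

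**Figure D5:**
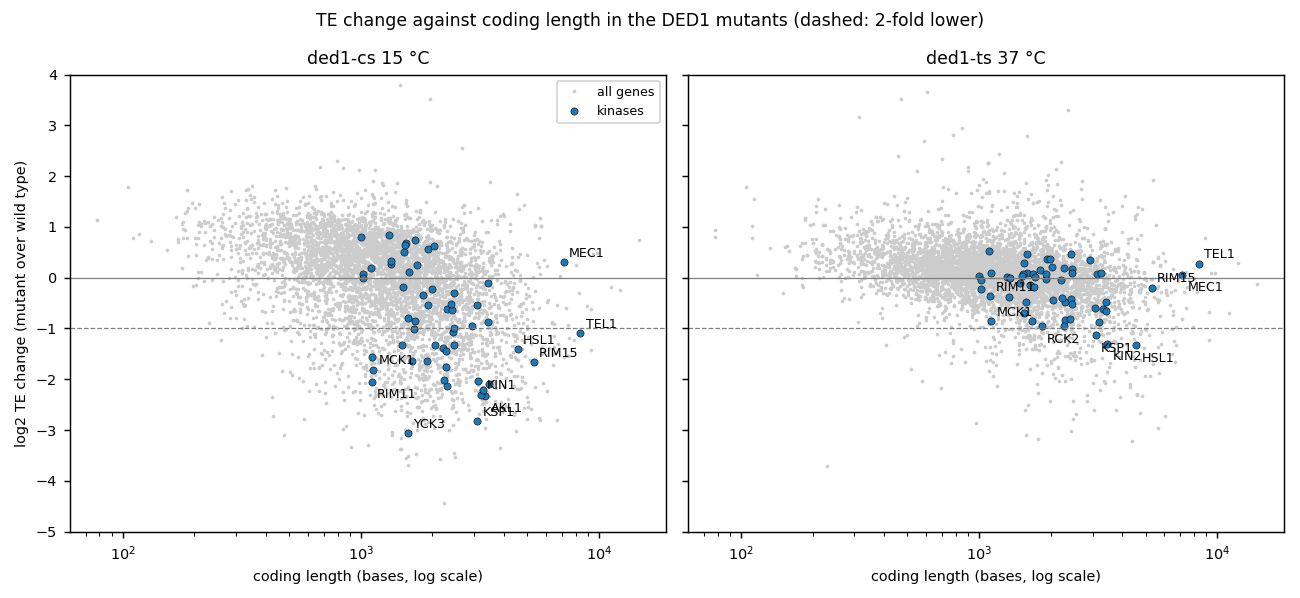
Log2 TE change (vertical axis) against listed gene length in bases (horizontal axis, log scale, labelled coding length) for all genes that entered (grey) and the kinases (blue). The panels show ded1-cs at 15 °C (left) and ded1-ts at 37 °C (right), with a dashed line at 2-fold lower. The kinases start at 1002 bases, beyond the shortest of the 4 length classes, and in ded1-cs both long genes such as RIM15 and short ones such as MCK1 and RIM11 lie below the line.

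In wild type the kinases covered most of the range of TE. Ranked among all genes of a table, 24 kinases were below the 50th percentile in each of the 4 wild-type values, 10 were above it in each, and 21 were on both sides. The same split over all genes is not given. The median percentile of these kinases was 47.0 in wild-type DED1 at 15 °C and 36.9 at 37 °C. In wild-type TIF1 it was 32.8 at 30 °C and 37.5 at 37 °C, so all 4 medians lay below the middle of all genes. SAK1 had the lowest median percentile over the 4 wild types, with a range of 2.71 to 11, and AKL1 was among the highest, at 81.0 to 85.4. Those 2 genes had TE changes of -0.86 and -2.33 in ded1-cs by the authors' deposited table. Against TE in wild-type TIF1 at 30 °C, which comes from other libraries, rho of the ded1-cs TE change was -0.12 over 55 kinases and 0.14 over 4754 genes.

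Other kinases had a like pattern in ded1-cs. Of 20 kinases of the MAPK, PKA and TOR cascades in that deposited table, 9 were at least 2-fold lower in TE, with a median of -0.90, and of 29 further kinases 12 were, with a median of -0.70. Of all genes that entered, 17.4% were, with a median of 0.10. The MAPK kinase PBS2 had footprints at 8.0 in wild-type DED1 and 5.64 in ded1-cs and a TE change of -2.42 by the authors' deposited table, and protein kinase C, PKC1, had one of -2.07. FUS3, the MAPK of mating, had 0.44 in that deposited table. Among the further kinases PSK1 and RTK1 had -1.97 and -1.93 and BUD32, a subunit of the KEOPS complex, had 0.51 in the authors' deposited table. The regulatory partners of the kinases, such as cyclins and scaffold or adaptor subunits, were nearer the genome, with 8 of 35 at least 2-fold lower and a median of -0.22. HSL7, the adaptor of Hsl1 toward Swe1, had a TE change of -1.80 by the authors' deposited table and TAO3, a RAM pathway scaffold, one of -1.56. IGO1, a target of Rim15, had 0.98.

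In ded1-ts, 4 of 20 cascade kinases were at least 2-fold lower, led by SSK2 at -2.67 and TPK2, a catalytic subunit of PKA, at -1.94 by the authors' deposited table, with SKM1 highest at 0.61. Of the further kinases 2 of 34 were (5.88%), and of the partners 2 of 36 (5.56%), near the 4.64% of all genes. In tif1-ts at 30 °C the numbers were 0 of 20, 1 of 31 and 0 of 35, against 1.14% of all genes. At 37 °C they were 0 of 20, 0 of 32 and 3 of 35, against 3.19% of all genes. Counts this small allow no reading about the lists. The partners at 37 °C included RAD9, an adaptor of Rad53, at -1.60, and CDC37, the Hsp90 partner that helps kinases fold, at -1.37 by the authors' deposited table. RAD9 footprints were 6.645 in wild-type TIF1 and 6.65 in tif1-ts on mRNA of 5.7 and 7.3, so its value came from higher mRNA. CDC37 footprints were 8.92 in wild-type TIF1 and 8.44 in tif1-ts, and its mRNA was 6.9 and 7.8. SML1, the ribonucleotide reductase inhibitor that Dun1 phosphorylates, had mRNA at 9.0 and 7.4 and a TE change of 1.02 in that deposited table.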

How the data were processed

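The kinase list, the lists of other kinases and partners and the role groups were chosen with earlier results of these data known, so none of them is independent support for a pattern. The authors deposited 4 tables of log2 normalized abundances, 1 footprint and 1 mRNA value for each group of 2 replicates, with log2 changes of mutant over wild type; the sources used here do not say how replicates were combined. Per the submitters' processing notes, the tools were Bowtie2 2.0.6, TopHat2 2.0.7, CASAVA 1.8 and DESeq, on the sacCer2 build. Each table was normalized on its own, so each change is measured against the rest of that table. mRNA levels were mostly deposited to 1 decimal, so the deposited changes were used, and TE changes equalled footprint minus mRNA changes within 1e-05.

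Genes entered with a mean abundance of wild type and mutant of 10 or more in each assay, unless a footprint value stood for 0 reads. Tests with replicates had been planned, but the files hold none, so members are described by counts past 2-fold and medians beside those of all genes. The value of 1 read was estimated from the spacing of low footprint values; among genes of up to 10 reads, 44.3% (ded1-cs) to 100% lay within 0.1 of a whole read. Counting standard errors follow from these reads, cover counting error only, and leave out differences between cultures. The counting of reads was checked on simulated data. The simulation drew whole reads from wild-type levels, so it does not check the read unit of the mutant columns, ded1-cs included.

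Levels are given for the 5 lowest and 3 highest TE changes and the 2 largest mRNA changes per comparison. These were taken among kinases whose mean abundance over wild type and mutant was at least 100 in both assays. Levels are also given for pairs at least 1 apart, and for 2 lowest and 1 highest of each other list. Further kinases were named with their role group. Gene lengths came from the R64 reference gene table, which matched all 60 symbols. Its build differs from that of the files, so no coordinates are given. The listed length is not always coding sequence alone, since those of SNC1 (467 bases) and MRK1 (1798 bases) are not multiples of 3. There were no columns of per-sample values, and the columns of group levels and changes were used. Python 3.11.15, pandas 2.3.3, numpy 2.4.6, scipy 1.17.1 and matplotlib 3.10.9 were used.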

Additional observations from a re-analysis of the deposited data

Results flagged for a closer look

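Of the kinases, 4 had TE changes of opposite sign in tif1-ts at 30 °C and 37 °C, at least 1 log2 unit apart in the authors' deposited tables. The difference between the temperatures was not tested, since each table gives 1 value per group. The share of all genes that meet the same rule is not given, so the count is no result about the kinases. HSL1 had a TE change of 0.40 at 30 °C and -1.32 at 37 °C. CKA1 had 0.33 and -0.81. CMK1 had -0.31 and 0.88, and PTK1 had -0.080 and 0.94. HSL1 mRNA in wild-type TIF1 was 8.2 at 30 °C and 6.9 at 37 °C, in tables that were normalized separately.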

How the results depend on the processing

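No paired analysis was possible because the columns carry no values per replicate, and for the same reason no replicate could be left out. Of 92 alternative values for 16 counts and medians, 75 kept their direction and stayed within 1.5 times the count or 0.1 of the median. The 75 include ded1-cs counts of lower TE of 17 of 32 kinases (floor of 100) and 32 of 56 (1.5-fold). The main count was 25 of 56. Removing the floor and leaving out the kinase that overlaps another gene (an alternative chosen after seeing the data) moved none. With a floor of 100 the ded1-cs median was -1.32, its count of mRNA past 2-fold 0, and 1 kinase was lower in tif1-ts at 37 °C. That floor is on the mean of wild type and mutant, so it is not independent of the change. Centred on the all-gene median, the ded1-cs median was -0.96 and 5 kinases were lower in ded1-ts. With differences of the deposited levels, 1 kinase was lower in tif1-ts at 37 °C, and the median there was 0.014 in place of -0.04. At 1.5-fold, TE was lower for 14 kinases (ded1-ts), 2 (tif1-ts, 30 °C) and 5 (tif1-ts, 37 °C), and higher for 6 (ded1-cs), 4 (tif1-ts, 30 °C) and 8 (tif1-ts, 37 °C); mRNA was past it for 8, 17, 8 and 10 kinases in the 4 tables. Shares of all genes at these settings are not given, so the counts show only how the numbers move and are no result about the kinases. The cause of these shifts was not tested. Low counts limit single genes, with footprint counting standard errors up to 0.39 in ded1-cs and 0.45 in ded1-ts.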
